A study of Homo sapiens with 30 samples.

Results

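The genes described here were 9 whose mRNAs are known as 5′ TOP mRNAs (mRNAs that start with a terminal oligopyrimidine tract) and that do not encode ribosomal proteins. They were chosen by symbol, and no value was used to select them, but earlier results of these data were known. All 9 were found among the 60664 genes of the count table: EEF1A1, EEF1B2, EEF1D, EEF1G, EEF2, TPT1, PABPC1, RACK1 and NACA. Their counts were followed over 30 stranded total-RNA libraries, prepared after removal of ribosomal RNA, in 10 groups of 3. The cells were FT293, a Flp-In T-REx derivative of HEK293, an established human embryonic kidney line that holds a site for a transgene switched on by tetracycline. Stable transfectants carried GFP-TIA1a, either wild type (WT) or mutant (WDM). The mutant form is that of Welander distal myopathy, a muscle disease, modelled here in cells of kidney origin. In each line, cytosol RNA was taken from untreated cells, from cells given tetracycline, and from cells given tetracycline and then 0.5 mM sodium arsenite for 60 min. The granule fraction, labelled SGs, was taken in each line from cells given tetracycline with or without arsenite. That fraction was the pellet of a fast spin, pulled down through the GFP tag, so all 4 granule groups carried the tagged protein. A pull-down from cells without GFP was not analysed here, and the labels do not say whether a line was 1 clone or whether replicates were separate cultures. The p-values therefore measure only the spread between these libraries.

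TOP mRNAs encode much of the translation machinery, and a cytosine at the cap followed by an uninterrupted run of pyrimidines lets cells switch their translation on and off together. The kinase complex mTORC1 keeps them on polysomes, while LARP1 binds the cap and the tract and holds them back when mTORC1 is inactive. TIA1 and its paralog TIAL1, RNA-binding proteins of stress granules, have also been described as binding TOP mRNAs in stressed or starved cells and moving them off polysomes. Stress granules are assemblies of RNA and protein that form when translation initiation is blocked, for example by arsenite.

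The first bases of the mRNAs were read from RefSeq start sites (GRCh38.p14), because the tract at the start is what places these genes together. Each sequence below holds 10 bases before the start and 20 from the start onward, 5′ to 3′ on the transcript's strand, and capitals mark the pyrimidine run that begins at the first transcribed base.
EEF1A1, chr6:73521013-73521042, minus strand: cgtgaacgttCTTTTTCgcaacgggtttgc
EEF2, chr19:3985444-3985473, minus strand: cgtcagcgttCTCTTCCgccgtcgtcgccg
EEF1B2, chr2:206159885-206159914, plus strand: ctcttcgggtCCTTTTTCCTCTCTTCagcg
RACK1, chr5:181243887-181243916, minus strand: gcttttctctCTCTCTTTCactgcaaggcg
NACA, chr12:56725280-56725309, minus strand: ctcgctcggtCTTTCTgccgccatcttggt
TPT1, chr13:45341164-45341193, minus strand: ctgagtcggcCTTTTCCgcccgctcccccc
EEF1G, chr11:62573872-62573901, minus strand: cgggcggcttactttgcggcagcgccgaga

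A start was counted as TOP when its first base was C and at least 4 bases that are C or T followed it directly, read on the transcript's strand at that position only. By this rule 6 of the 7 genes with an entry had a TOP start, and the EEF1G entry began with A. EEF1B2 had a second entry, upstream, that also began with A. The run was 16 bases long in EEF1B2, 9 in RACK1, 7 in EEF1A1, EEF2 and TPT1, and 6 in NACA. Among all 35116 starts of the table, 4.07% met the rule. Starts of this kind were found in 46 of 62 ribosomal protein genes with an entry, in 9 of 10 genes of a list of other TOP mRNAs (initiation factor subunits, FAU, NAP1L1 and the like), in 2 of 13 abundant genes without a classical TOP (such as GAPDH and ENO1), and in 0 of 9 further elongation and termination factors. EEF1D and PABPC1 are named without a start sequence.

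Of the 9 genes, 8 could be tested. EEF1G (ENSG00000254772), the subunit that anchors the guanine nucleotide exchange complex of elongation, had 5 counts in all 30 libraries together, 2 at most in a library, and did not pass the filter on low counts. It lies on chromosome 11 at 62559596 to 62574086 (GRCh38), and 99.7% of its exon bases fall inside exons of ENSG00000255508, a protein-coding gene model on the same strand with 134 counts. How the counting treated overlapping genes is not given in the sources used here, and the part of the overlap in the low counts was not tested. EEF1A1 (ENSG00000156508, chromosome 6, 73489308 to 73525587) shares sequence with 39 named pseudogenes whose counts came to 20.9% of its own, nearly all in EEF1A1P5. Its level is therefore uncertain, and that share of assigned counts does not bound the error. The ratio of EEF1A1P5 to EEF1A1 counts was 19.7% to 20.8% in cytosol libraries and 17.8% to 19.6% in granule libraries. For EEF1B2 and EEF1D the pseudogenes had 1.29% and 0.506% of the parent's counts. Levels were not compared between genes, since no transcript length common to the expressed isoforms could be assigned.

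Depth ran from 7971585 to 18884843 counts in cytosol libraries and from 5906167 to 27419145 in granule libraries, and 3 counts, the limit that a count of 0 allows, came to 0.109 to 0.508 CPM, the count of a gene scaled to a common library total. Such limits cover counting error only. The tagged transgene could not be followed through TIA1, which had at most 0.0738 CPM in any library and so checked no label. All 4 epithelial markers examined (KRT8, KRT18, EPCAM and CDH1) were present, as were 3 of 4 embryonic kidney, 2 of 3 neuronal, 2 of 4 fibroblast, 1 of 4 skeletal muscle and 0 of 4 blood markers at 1 CPM in cytosol. NEAT1, a nuclear RNA, had 46.7 to 266 CPM in cytosol and 1377 to 2623 CPM in the granule fraction. ACTB mRNA, encoding cytoplasmic actin, had 669 to 1033 CPM in cytosol and 175 to 381 CPM in the granule fraction. The part that nuclear RNA in the pellet has in the values below was not tested.

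**Figure D1:**
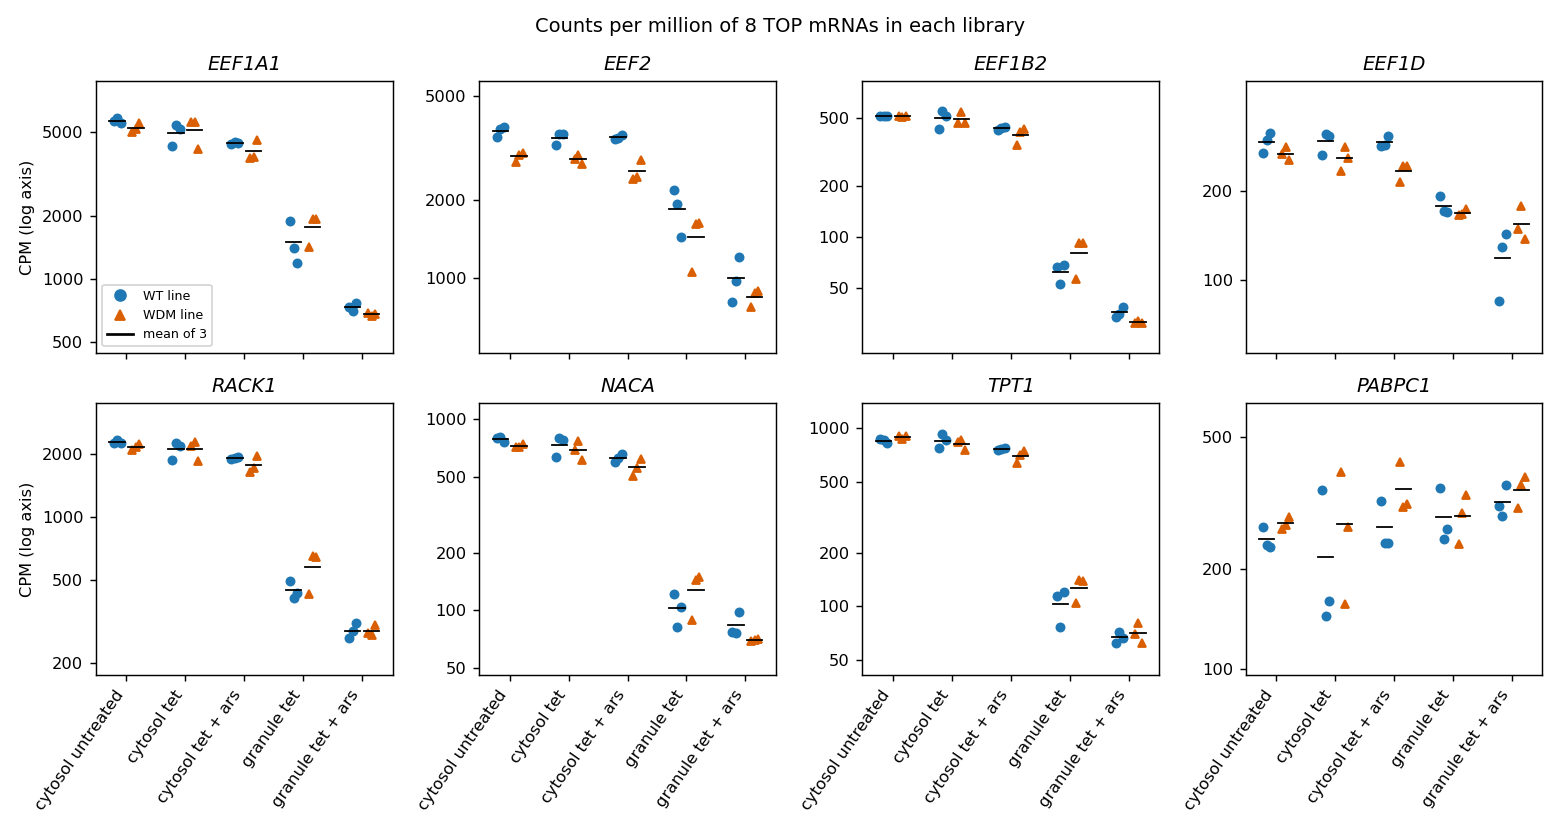
CPM (log axis) of the 8 tested genes in each of the 30 libraries, by fraction and treatment; circles are WT, triangles WDM, and bars are means of 3. In 7 genes the granule libraries sit under every cytosol library of the same line and treatment, and PABPC1 overlaps throughout. The share of all genes with groups apart was not counted.

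The first comparison asked where these mRNAs were more abundant, in the granule fraction or in the cytosol of the same line and treatment. In all 4 comparisons (both lines, with and without arsenite) the same 7 genes were lower in the granule fraction, PABPC1 was not called, and no gene was higher. Over all genes tested, 36.2% (WT) and 35.3% (WDM) were lower without arsenite and 35.5% (WT) and 35.7% (WDM) with arsenite, against 7 of 8 here. Members were called in edgeR's quasi-likelihood test at an adjusted p under 0.05. The median log2 difference of the 8 was -2.03 (WT) and -1.70 (WDM) without arsenite and -2.67 in both lines with it, while the median of all genes lay between 0.02 and 0.07. CPM are shares of a library, while the log2 differences also carry edgeR's scaling between libraries, so both are relative to the other genes. Scaled by library size alone, the medians of the 8 were -1.99 (WT) and -1.70 (WDM) without arsenite. With arsenite they were -2.67 and -2.61. Between lines or treatments, bulk RNA cannot tell fewer cells holding an mRNA from less of it per cell.

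The 4 genes of the elongation cycle differed in size of effect. EEF1A1, which brings aminoacyl-tRNA to the ribosome, had 4304, 5418 and 5193 CPM in WT tetracycline cytosol and 1892, 1403 and 1186 CPM in WT tetracycline granules. The groups did not overlap, and the mean fell from 4972 ± 589 to 1494 ± 362 CPM (SD, n = 3). The log2 difference was -1.78 ± 0.20 (SE), or 3.44-fold lower, with an adjusted p of 3.11e-09. In the WDM line EEF1A1 had 5574, 5590 and 4171 CPM in cytosol and 1418, 1937 and 1931 CPM in granules, a log2 difference of -1.54 ± 0.20 (adjusted p = 5.81e-08). With arsenite the difference was -2.59 in WT and -2.64 in WDM, about 6.01-fold and 6.24-fold.

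EEF2, the translocase that moves the ribosome along by a codon, stayed closer to its cytosol level. It had 3244, 3577 and 3574 CPM in WT tetracycline cytosol and 2188, 1922 and 1439 CPM in granules. In WDM it had 2856, 2980 and 2743 CPM in cytosol and 1059, 1614 and 1631 CPM in granules. The groups were apart in both lines, at log2 differences of -0.95 ± 0.19 (adjusted p = 6.81e-05) and -0.99 ± 0.19 (adjusted p = 4.74e-05). With arsenite they were -1.80 and -1.66.

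EEF1B2 and EEF1D both encode exchange factors that reload EEF1A1 with GTP, yet their mRNAs differed widely in how far they were lower. EEF1B2 had 429, 552 and 516 CPM in WT tetracycline cytosol and 66.2, 52.8 and 67.8 CPM in granules, and in WDM 467, 543 and 468 against 56.5, 92.4 and 92.1 CPM. That is 8.27-fold and 6.09-fold lower, and with arsenite EEF1B2 was 12.2-fold and 13.4-fold lower, the largest difference among the 8 genes in either line. EEF1D had 264, 310 and 307 CPM in WT tetracycline cytosol and 193, 172 and 169 CPM in granules, and in WDM 234, 281 and 258 against 166, 167 and 174 CPM. Its groups did not overlap either, but the log2 differences were -0.77 ± 0.15 (adjusted p = 3.80e-05) and -0.61 ± 0.15 (adjusted p = 0.000617). With arsenite EEF1D was -1.30 ± 0.15 in WT and -0.66 ± 0.15 in WDM. A gene model of unconfirmed type on the opposite strand covers 31.2% of the exon bases of EEF1D and had 92 counts. Whether this overlap affected the EEF1D counts was not tested.

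RACK1, NACA and TPT1 were called with large differences. RACK1, a scaffold protein of the small ribosomal subunit, had 1873, 2246 and 2190 CPM in WT tetracycline cytosol and 492, 410 and 433 CPM in granules, 4.88-fold lower. In WDM RACK1 had 2187, 2275 and 1840 CPM in cytosol and 429, 652 and 641 CPM in granules, 3.65-fold lower. NACA, a subunit of the complex that covers nascent chains at the ribosome exit, had 639, 797 and 776 CPM in WT cytosol and 122, 82.1 and 104 CPM in granules. In every case the granule libraries lay under the cytosol libraries. For NACA in WDM the cytosol libraries had 691, 773 and 616 CPM and the granule libraries 89.4, 144 and 150 CPM. The log2 differences of NACA were -2.89 ± 0.20 (adjusted p = 2.17e-13) and -2.43 ± 0.19 (adjusted p = 8.36e-12). TPT1, which encodes the translationally controlled tumour protein, had 776, 921 and 853 CPM in WT cytosol and 114, 76.8 and 120 CPM in granules, 8.49-fold lower. For TPT1 in WDM the values were 838, 852 and 753 against 104, 140 and 139 CPM, 6.38-fold lower. With arsenite the log2 differences were -2.75 and -2.70 for RACK1, -2.90 and -3.07 for NACA, and -3.51 and -3.36 for TPT1, WT before WDM.

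PABPC1, which encodes the cytoplasmic poly(A)-binding protein and whose protein is a common marker of stress granules, was the exception. Its mRNA had 347, 144 and 161 CPM in WT tetracycline cytosol and 351, 246 and 263 CPM in granules. In WDM it had 392, 157 and 268 CPM in cytosol and 238, 295 and 334 CPM in granules, so the groups overlapped in both lines. The log2 differences were 0.36 (2 SE interval -0.19 to 0.92) in WT and 0.09 (-0.47 to 0.64) in WDM. With arsenite they were 0.26 (-0.29 to 0.81) and -0.06 (-0.61 to 0.49), so PABPC1 was not shown to differ in any of the 4 comparisons. The library numbered 1 was the highest of the 3 in the tetracycline cytosol of both lines, for PABPC1 and also for NEAT1, at 132 CPM against 46.7 and 53.2 in WT and 168 against 63.8 and 154 in WDM. Without the WT library numbered 1, the log2 difference of PABPC1 between granules and WT tetracycline cytosol was 0.79. That library was singled out for its PABPC1 level, so the value is a description with no test.

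**Figure D2:**
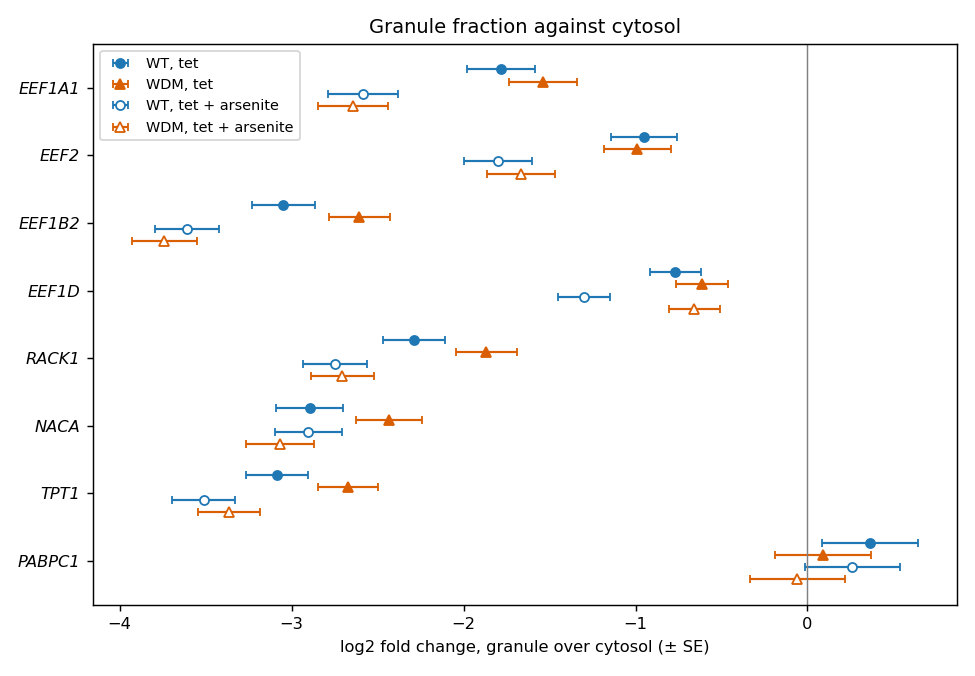
Log2 fold change of granule fraction over cytosol for each gene, as points with bars of 1 SE from edgeR, for both lines without (filled) and with arsenite (open). EEF1B2, TPT1 and NACA lie at -2.43 or lower in all 4 comparisons, EEF1D and EEF2 lie nearest to 0 among the 7 lower genes, and PABPC1 spans 0.

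Other genes gave the scale of this difference. Of 14 tested mRNAs in the list of other TOP genes, 13 were lower in granules in each line without arsenite and 12 with arsenite. In that list EIF3A, a large subunit of initiation factor eIF3, was higher in WT granules with arsenite, at 0.54 ± 0.17 (adjusted p = 0.00516). Of 72 ribosomal protein genes, 71 were lower without arsenite and all 72 with it, and their medians were -2.49, -2.18, -3.09 and -3.07 in the order WT and WDM without arsenite, then WT and WDM with it. Abundant mRNAs without a classical TOP were lower as well, 14 of 14 in each of the 4 comparisons, with medians of -1.81, -1.62, -1.92 and -1.86. Among the further elongation and termination factors, 4, 3, 3 and 3 of 8 were lower and 2, 1, 2 and 1 higher, with medians between -0.30 and -0.12. Of 3 nuclear RNAs tested, 3 were higher without arsenite and 2 with it in each line. Of all genes called, 52.2% (WT) and 50.4% (WDM) were higher without arsenite, and 49.7% and 50.4% with it.

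**Figure D3:**
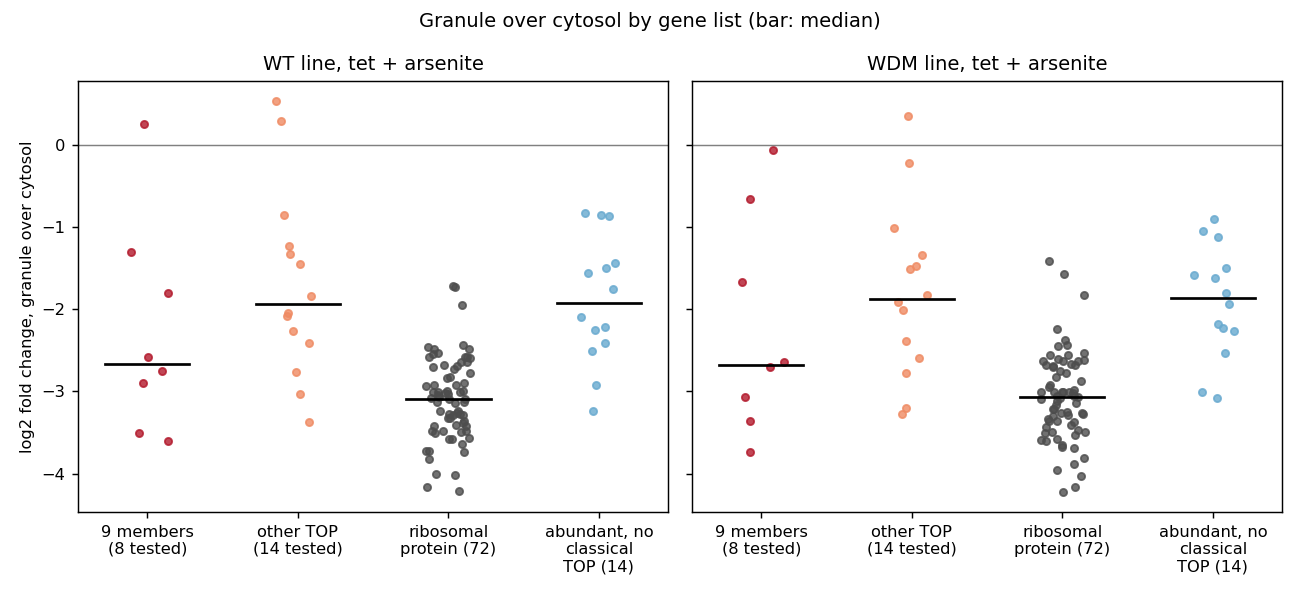
Log2 fold change of granule fraction over cytosol in arsenite-treated WT (left) and WDM (right) cells; each point is a gene, black bars are list medians, and horizontal scatter has no meaning. The medians were -2.67 for the described genes in both lines, -1.94 and -1.87 for other TOP mRNAs, -3.09 and -3.07 for ribosomal protein genes, and -1.92 and -1.86 for abundant mRNAs without a classical TOP.

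The second comparison asked what arsenite did within each fraction. In the granule fraction 6 of 8 genes fell in each line, beside 14.1% of all genes in WT and 17.7% in WDM, and none rose. EEF1A1, EEF1B2, EEF2, TPT1 and RACK1 were called in both lines, EEF1D in WT and NACA in WDM. The medians of the 8 were -0.62 (WT) and -0.93 (WDM) on the log2 scale, against -0.03 and 0.01 for all genes. As a share of all counts in granule libraries, the 9 genes together went from 0.452% ± 0.083 to 0.264% ± 0.031 in WT and from 0.456% ± 0.087 to 0.248% ± 0.011 in WDM (SD, n = 3).

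EEF1A1 had 739, 703 and 766 CPM in WT arsenite granules and 690, 668 and 683 CPM in WDM arsenite granules. All of these lay under every granule library without arsenite, the lowest of which had 1186 CPM. The log2 change was -1.0 ± 0.20 (adjusted p = 0.000434) in WT and -1.44 ± 0.20 (adjusted p = 4.74e-06) in WDM. EEF1B2 had 33.8, 35.0 and 38.5 CPM in WT and 31.0, 31.7 and 31.0 CPM in WDM, changes of -0.78 ± 0.18 (adjusted p = 0.00183) and -1.44 ± 0.18 (adjusted p = 1.63e-06). EEF2 had 811, 974 and 1207 CPM in WT and 774, 878 and 890 CPM in WDM, changes of -0.88 ± 0.21 (adjusted p = 0.00244) and -0.83 ± 0.21 (adjusted p = 0.00303). For these 3 elongation factors the arsenite and tetracycline groups did not overlap in either line. How many of all genes had groups apart was not counted.

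RACK1 had 262, 282 and 310 CPM in WT arsenite granules and 276, 272 and 304 CPM in WDM. Its changes were -0.63 ± 0.18 (adjusted p = 0.00814) and -1.08 ± 0.18 (adjusted p = 3.62e-05), again with groups apart. TPT1 had 62.4, 71.7 and 66.7 CPM in WT and 69.4, 80.5 and 61.8 CPM in WDM, changes of -0.61 ± 0.17 (adjusted p = 0.00929) and -0.92 ± 0.17 (adjusted p = 0.000190). Without the third tetracycline library of WT granules the TPT1 change in WT was -0.52 (adjusted p = 0.0647). NACA had 77.3, 76.1 and 98.0 CPM in WT, which overlapped the tetracycline libraries (log2 change -0.27, adjusted p = 0.278), and 69.0, 70.2 and 70.7 CPM in WDM, which did not (-0.94 ± 0.19, adjusted p = 0.000323). EEF1D had 85.4, 129 and 143 CPM in WT, a change of -0.57 ± 0.16 (adjusted p = 0.00960), and 149, 178 and 138 CPM in WDM (-0.19, adjusted p = 0.381). Without the first arsenite library of WT granules, the one at 85.4 CPM, the EEF1D change in WT was -0.41 (adjusted p = 0.0835). PABPC1 had 308, 288 and 359 CPM in WT and 304, 357 and 377 CPM in WDM, with log2 changes of 0.17 and 0.19 whose adjusted p were 0.488 and 0.422.

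NACA and EEF1D were called in 1 line each, but a difference between lines was not shown. The line-by-arsenite term in granules was -0.67 (2 SE interval -1.20 to -0.15, adjusted p = 0.304) for NACA and 0.38 (-0.08 to 0.84, adjusted p = 0.495) for EEF1D. Of the 8 genes, 0 were called for this term by edgeR or DESeq2, and 2 (EEF1B2 at -0.66 and NACA) had an unadjusted p under 0.05, beside 0% of all genes called. Among ribosomal protein genes 62 of 72 fell in WT granules and 69 in WDM, with medians of -0.77 and -1.21. In the list of other TOP mRNAs 5 of 14 fell and 1 rose in WT, and 9 fell in WDM. EIF3H had the largest fall in WT at -0.98 and EIF3E in WDM at -1.31, while IPO7, an import receptor, rose by 0.77 in WT. Of the abundant mRNAs without a classical TOP, 5 (WT) and 6 (WDM) of 14 fell, with medians of 0.06 and -0.30.

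In the cytosol fewer of the 8 genes were called with arsenite, and whether the size of change differed from that in granules is tested further on. Of 8 genes, 3 fell in WT (beside 15.4% of all genes) and 5 in WDM (14.8%), and none rose. EEF1B2 had 428, 440 and 443 CPM in WT with arsenite and 345, 414 and 434 CPM in WDM, changes of -0.33 ± 0.11 (adjusted p = 0.0277) and -0.40 ± 0.11 (adjusted p = 0.0107). NACA had 600, 631 and 656 CPM in WT and 504, 559 and 618 CPM in WDM, changes of -0.37 ± 0.11 (adjusted p = 0.0190) and -0.40 ± 0.11 (adjusted p = 0.0123). TPT1 had 750, 768 and 776 CPM in WT and 639, 702 and 745 CPM in WDM, changes of -0.29 ± 0.09 (adjusted p = 0.0256) and -0.32 ± 0.09 (adjusted p = 0.0161). Only EEF1B2 and TPT1 in WDM had groups that did not overlap, and the share of all genes with groups apart was not counted. In WT the tetracycline library numbered 1 lay within the arsenite range for all 3 genes.

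EEF1A1 and RACK1 also fell in WDM cytosol, by 0.43 and 0.34 on the log2 scale (adjusted p = 0.0181 and 0.0245). EEF1A1 had 4374, 4500 and 4449 CPM in WT with arsenite, and 3769, 3816 and 4585 CPM in WDM. RACK1 had 1900, 1911 and 1937 CPM in WT and 1638, 1722 and 1953 CPM in WDM. In WT neither passed, at -0.30 (adjusted p = 0.0802) for EEF1A1 and -0.27 (adjusted p = 0.0619) for RACK1. For EEF2 the changes were -0.13 and -0.24, for EEF1D -0.15 and -0.23, and for PABPC1 0.18 and 0.26, all with adjusted p over the threshold. The WT and WDM changes were not shown to differ: 0 of 8 genes were called for the line-by-arsenite term in cytosol by edgeR or DESeq2, 0 had an unadjusted p under 0.05, and 0% of all genes were called.

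The number called in cytosol turned on single libraries. The share of all genes called with libraries left out is not given here, so these counts describe the members only. Without the WT tetracycline library numbered 1, 6 genes fell in WT. Without the library numbered 2 or 3 of that group, or the arsenite library numbered 1 or 2, 0 were called, and without the arsenite library numbered 3, 1. In WDM 0 were called without the tetracycline library numbered 2 or without the arsenite library numbered 1, and 3 without the arsenite library numbered 2. With both tetracycline libraries numbered 1 left out, which was chosen after their PABPC1 and NEAT1 values were seen, 6 genes fell in each line. PABPC1 then had values of 0.64 in WT and 0.62 in WDM, which carry no test, since its level chose the libraries. Scaling by library size alone moved the median of all genes from -0.02 to 0.11 in WT, moved the share of calls that were rises from 47.1% to 76.7%, left 0 members called in WT, and put EEF2 at 0.0028. In WDM that share moved from 48.8% to 66.8%, and 5 members were still called.

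Other cytosol mRNAs were measured in the same libraries. Of 72 ribosomal protein genes 52 fell in WT and 68 in WDM, with medians of -0.31 and -0.39, and of 14 other TOP mRNAs 12 and 9 fell, EIF3F by 0.36 in WT and EIF3E by 0.36 in WDM. Of 14 abundant mRNAs without a classical TOP, 4 and 2 fell, with medians of -0.25 and -0.22. These medians lay close to the medians of the 8 genes, -0.28 in WT and -0.33 in WDM.

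**Figure D4:**
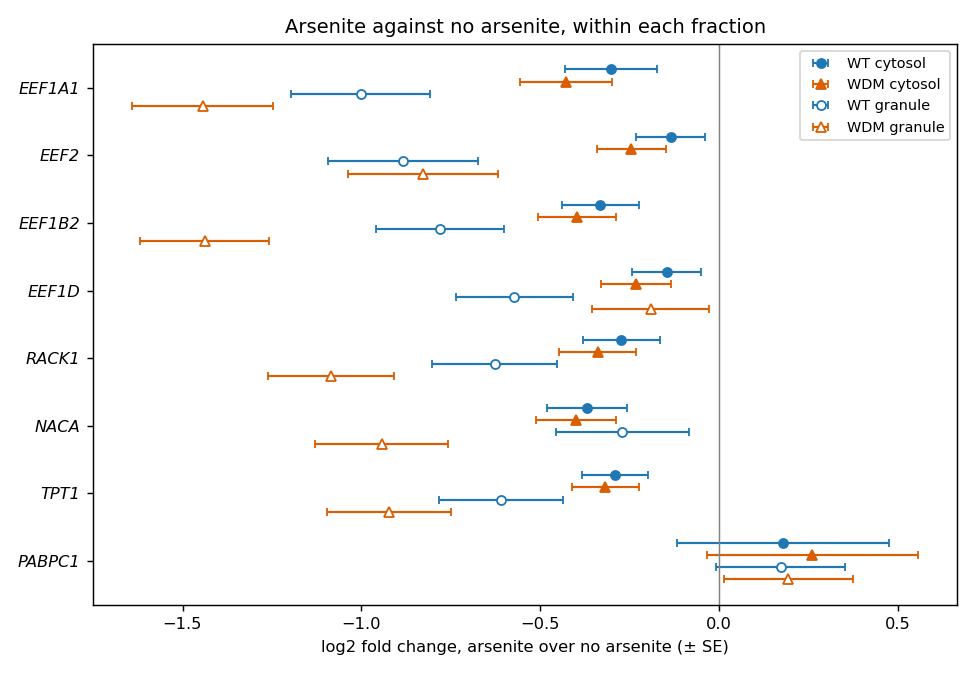
Log2 fold change of arsenite plus tetracycline over tetracycline in the cytosol (filled) and granule fraction (open) of both lines, with bars of 1 SE from edgeR. EEF1A1 moved from -0.30 and -0.43 in the cytosol to -1.0 and -1.44 in granules, whereas NACA in WT was at -0.37 in the cytosol and -0.27 in granules.

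Whether the ratio of granule to cytosol changed with arsenite was tested as an interaction over both fractions. In WT 2 of 8 genes had a lower ratio with arsenite (beside 19.4% of all genes), EEF1A1 at -0.80 ± 0.27 (adjusted p = 0.0241) and EEF2 at -0.85 ± 0.27 (adjusted p = 0.0179). In WDM 4 of 8 did (beside 16.5%): EEF1A1 at -1.10 ± 0.27 (adjusted p = 0.00391), EEF1B2 at -1.13 ± 0.24 (adjusted p = 0.00125), TPT1 at -0.69 ± 0.23 (adjusted p = 0.0308) and RACK1 at -0.84 ± 0.24 (adjusted p = 0.0127). The WT count of 2 of 8 is near the share of all genes. The median of all genes in these terms was itself below 0, at -0.21 in WT and -0.17 in WDM, and all the genes named lay further down. Even so, 21.8% of all genes in WT and 8.90% in WDM lay below the lowest member. NACA in WT, at -0.01, lay above that median, and so did EEF1D in WDM at -0.04 and PABPC1 in both lines. The WT calls were sensitive to single libraries: 0 were left without the tetracycline granule library numbered 1, and 1 without the tetracycline cytosol library numbered 1, the arsenite cytosol library numbered 2 or 3, or the arsenite granule library numbered 1. TPT1 in WDM lost its call when any of 7 of the 12 libraries was left out, with values from -0.86 to -0.60 over all 12. With the replicate number as a block, 4 genes were called in WT, EEF1B2 at -0.57 and EEF1D at -0.55 in addition. The interactions share their libraries with the comparisons above and are not separate evidence.

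The ratio of granule to cytosol was not shown to differ between lines. For the line-by-fraction term 0 of 8 genes were called without arsenite and 0 with it by edgeR or DESeq2 (0 and 1 with an unadjusted p under 0.05, and 0.00551% of all genes called in each). The 1 was EEF1D with arsenite, at 0.64 (2 SE interval 0.22 to 1.06, adjusted p = 0.741). Without arsenite EEF1B2, NACA, RACK1, TPT1 and EEF1A1 had terms of 0.44, 0.46, 0.42, 0.41 and 0.25, each with an interval that included 0.

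The third comparison set the WDM line against the WT line at the same treatment. EEF2 was the 1 gene lower in WDM cytosol at all 3 treatments. In untreated cytosol EEF2 had 3475, 3731 and 3813 CPM in WT and 2805, 2983 and 3012 CPM in WDM, and with arsenite 3424, 3443 and 3543 against 2408, 2449 and 2855 CPM. In each treatment every WDM library was under every WT library. The log2 differences were -0.36 ± 0.10 (adjusted p = 0.0199) untreated, -0.33 ± 0.10 (adjusted p = 0.0271) with tetracycline and -0.44 ± 0.10 (adjusted p = 0.00373) with arsenite. They made 1 of 8, 1 of 8 and, with EEF1D, 2 of 8 genes called, beside 5.6%, 6.84% and 5.37% of all genes lower in WDM. The arsenite call held without any 1 of the 6 libraries. The other calls did not: untreated, EEF2 was not called without WT library 2 or 3 or WDM library 1 or 2 (adjusted p 0.0690 to 0.0944), and with tetracycline not without WT library 2 or 3 or WDM library 1 or 3 (0.0801 to 0.125). The treatments are separate libraries of the same pair of lines, so they repeat the measurement and not the lines.

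EEF1D had 284, 285 and 307 CPM in WT arsenite cytosol and 215, 242 and 243 CPM in WDM, groups that did not overlap. Its log2 difference was -0.33 ± 0.10 (adjusted p = 0.0338), and the call was lost without any 1 of 5 of the 6 libraries, all but WDM library 2. Untreated and with tetracycline the differences were -0.17 (adjusted p = 0.310) and -0.24 (adjusted p = 0.111). With the replicate number as a block, EEF1D was also called with tetracycline, at -0.24 (adjusted p = 0.0363). In the untreated cytosol EEF1B2 was level between lines, at 516, 514 and 515 CPM in WT and 516, 508 and 515 CPM in WDM. The other genes had 2 SE intervals that included 0 at every treatment. When only the untreated groups were fitted, 4 genes were called, EEF1A1 at -0.15, EEF1D at -0.17 and NACA at -0.16 in addition to EEF2. The share of all genes called in that fit is not given here.

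**Figure D5:**
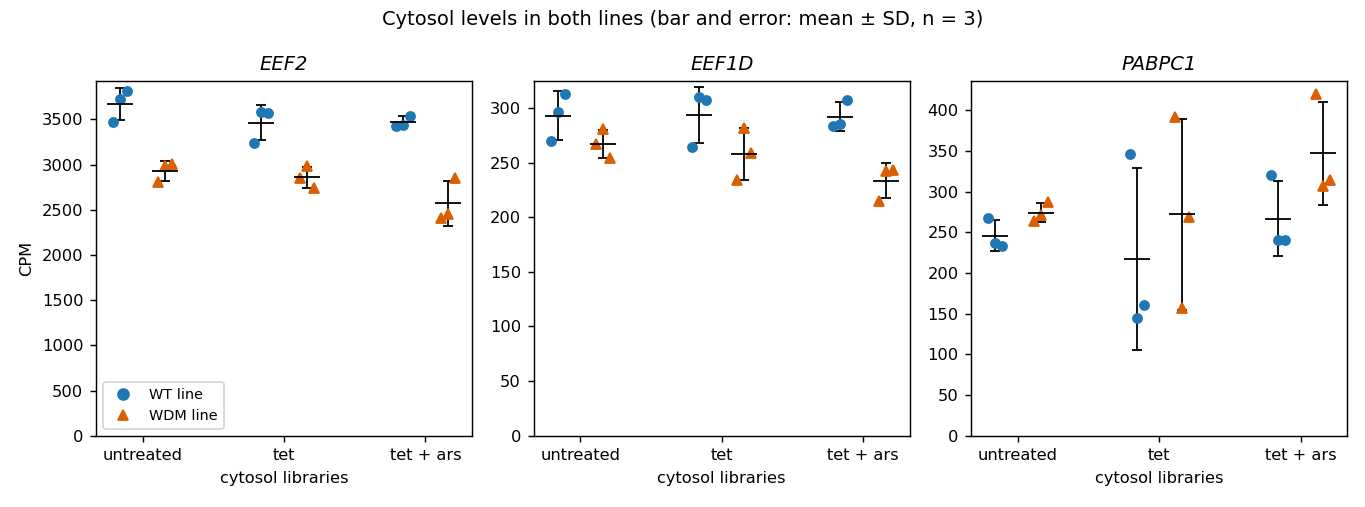
Cytosol CPM of EEF2, EEF1D and PABPC1 by treatment, from 0, with each library as a point (circles WT, triangles WDM) and the mean ± SD of 3. EEF2 is lower in WDM in every treatment, at 2571 ± 247 against 3470 ± 63.8 CPM with arsenite, and PABPC1 has its widest spread in the tetracycline groups.

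In granules no difference between lines was called. Of 8 genes, 0 were called without arsenite (2 with an unadjusted p under 0.05, beside 5.55% of all genes called) and 0 with arsenite (0 with an unadjusted p under 0.05, beside 7.95%), by edgeR and by DESeq2. EEF1B2 and RACK1 were those 2, at 0.38 (2 SE interval 0.02 to 0.73, adjusted p = 0.270) and 0.37 (0.02 to 0.72, adjusted p = 0.268) in WDM over WT. Without the WDM tetracycline granule library numbered 1, which had the lowest EEF1A1 (1418 CPM), EEF1B2 and RACK1 of its group, these passed at 0.59 and 0.57, and NACA at 0.55. The share of all genes called in that setting is not given here. EEF2 was -0.37 without arsenite (-0.79 to 0.05) and -0.31 with it (-0.73 to 0.10), intervals that include both 0 and the size seen in cytosol.

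Tetracycline alone, which switches the tagged TIA1a on, called 0 of 8 genes in either line by edgeR or DESeq2, with 0 at an unadjusted p under 0.05, beside 5.31% (WT) and 6.3% (WDM) of all genes. The widest 2 SE intervals were those of PABPC1, -0.75 to 0.44 in WT and -0.58 to 0.60 in WDM. For the other 7 genes the intervals reached no further than -0.40 and 0.25, so a 1.5-fold change lay outside them. With both tetracycline libraries numbered 1 left out, PABPC1 had a log2 difference of -0.61 in WT. Those libraries were chosen for their high PABPC1, so this value is a description and carries no test. The tetracycline effect was not shown to differ between lines (0 of 8 by edgeR or DESeq2, 0 with an unadjusted p under 0.05, and 0.018% of all genes called).

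Levels were ordered over the 10 groups gene by gene, and the orders differed in detail. EEF1A1 ran from 5671 ± 144 CPM in untreated WT cytosol, through 5242 ± 258 in untreated WDM, 5112 ± 815 and 4972 ± 589 in tetracycline WDM and WT, and 4441 ± 62.9 and 4057 ± 458 in arsenite WT and WDM, to 1762 ± 298 and 1494 ± 362 in tetracycline granules of WDM and WT and 736 ± 31.6 and 680 ± 11.0 in arsenite granules (SD, n = 3). The steps from cytosol to granule and from tetracycline to arsenite granule were past the spread of the libraries, and among cytosol groups the tetracycline values overlapped their neighbours. TPT1 was highest in untreated WDM cytosol, at 887 ± 19.7 CPM, and EEF2 in arsenite WT cytosol, at 3470 ± 63.8 CPM, lay above EEF2 in untreated WDM cytosol, at 2933 ± 112 CPM. The 7 genes other than PABPC1 had group means that correlated with the mean of the other members at r = 0.930 to 0.994 over the 10 groups, with EEF1D lowest, whereas PABPC1 had r = -0.71. The group means share the split into 6 cytosol and 4 granule groups. Of 5401 protein-coding genes with a mean of at least 50 CPM, PIH1D1 and NME3 (r = 0.998), and YBX3, GAPDH and GTF3A (r = 0.997) had profiles most like the mean profile of the 8 genes. These are descriptions over 10 group means and carry no test.

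Regulators of TOP mRNAs and paralogs of the members were counted from lists of their own. TIAL1 had 70.5, 58.6 and 61.6 CPM in untreated WT cytosol, 44.4, 32.0 and 28.8 with tetracycline and 65.0, 60.1 and 52.8 with arsenite. It fell with tetracycline by 0.82 in WT (adjusted p = 0.00419) and 0.76 in WDM (adjusted p = 0.00337), and rose with arsenite by 0.63 (adjusted p = 0.00317) and 0.79 (adjusted p = 0.000533). In granules TIAL1 fell with arsenite, by 0.60 in WT and 0.52 in WDM. TIAL1 was the 1 of 14 tested regulators that fell with tetracycline in each line. Of the 14 regulators, 5 were higher and 5 lower in granules than in cytosol in both lines without arsenite. That split was near that of all genes, of which 36.2% (WT) and 35.3% (WDM) were lower. Of all calls, 52.2% and 50.4% were higher. LARP1, chosen after its values were seen, had 447, 472 and 395 CPM in WT tetracycline granules and 681, 689 and 866 CPM with arsenite, and in WDM 441, 421 and 458 against 856, 1005 and 1074 CPM. LARP1 rose by 0.78 in WT and 1.09 in WDM. In the same comparisons 2 of the 14 regulators rose and 2 fell in WT, and 2 rose and 5 fell in WDM. Over all genes 14.1% (WT) and 17.7% (WDM) fell, and 54.0% and 51.4% of all calls were rises. Of the paralogs, 3 of 5 could be tested. The tested paralog not named here rose with arsenite in granules, by 1.17 in WT and 2.14 in WDM on the log2 scale. With arsenite it was also higher in granules than in cytosol, by 1.53 and 1.97, and without arsenite no paralog was called higher there. EEF1A2, the neuronal and muscle form of elongation factor 1A and also chosen after its values were seen, had 44.6, 40.7 and 39.9 CPM in untreated WT cytosol and 18.2, 20.4 and 19.2 CPM in WDM. Its log2 difference between lines was -1.15 (adjusted p = 0.000261) untreated, -1.16 with tetracycline and -1.46 with arsenite, and in granules -1.07 and -0.96. PABPC4, a paralog of PABPC1, had 175 to 241 CPM in WT cytosol and was not called between fractions except in WDM with arsenite, at -0.45.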

How the data were processed

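Raw read counts per gene for 30 libraries were used as deposited by the authors. Per the submitters' processing notes, Trimmomatic, STAR, Picard and featureCounts were used with build GRCh38. Versions, annotation release, strand setting and treatment of overlapping genes are not given in the sources used here. Counts over genes were fitted with edgeR 4.0.16 in R 4.3.3 (TMM scaling, filterByExpr with a minimum count of 10 and a total of 15, robust quasi-likelihood F-test). There were 3 fits, over 18 cytosol libraries (16670 genes), 12 granule libraries (18366) and 24 libraries of both fractions (18141). Benjamini-Hochberg adjustment ran over all genes of a fit, at 0.05, for 22 comparisons that share groups with each other. Intervals are 2 SE. The fits were tested on simulated data with few changed genes and the same spread for all genes. The comparisons between fractions differ from that setting, so the simulation does not show how the fits perform there. CPM were computed from the total count of each library.

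All members were reported, and from the list of other TOP mRNAs the called gene with the largest rise and fall, except for a gene that is not reported here. Members, lists and tests were chosen with earlier results of these data known. Replicates within a group differed by more than sampling noise, so none were merged. Same-numbered libraries deviated together, with every correlation over 0.1, in 1 of the 22 comparisons, granule against cytosol with arsenite in WDM (0.306 to 0.563), where the replicate block kept 7 members called. The labels do not say what the numbers mark. Alternatives were DESeq2 1.42.0, RLE size factors, library size alone, no filter, the replicate block, pseudogene counts added, only the groups compared, each library left out and, chosen after seeing the data, both tetracycline cytosol libraries numbered 1 left out. Human gene positions are from GENCODE 44 and start sequences from RefSeq.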

Additional observations from a re-analysis of the deposited data

Results flagged for a closer look

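For 6 results the arsenite effect differed between the granule fraction and the cytosol, by edgeR's interaction test with adjustment over all genes. The median interaction of all genes was -0.21 in WT and -0.17 in WDM. The 6 results are 2 of 8 members in WT, near the 19.4% of all genes lower, and 4 of 8 in WDM, beside 16.5%. In WT these were EEF1A1, with an interaction of -0.80 on the log2 scale (adjusted p = 0.0241), and EEF2, at -0.85 (adjusted p = 0.0179). In WDM they were EEF1A1 at -1.10 (adjusted p = 0.00391), EEF1B2 at -1.13 (adjusted p = 0.00125), TPT1 at -0.69 (adjusted p = 0.0308) and RACK1 at -0.84 (adjusted p = 0.0127). The WDM values of EEF1A1, EEF1B2 and RACK1 kept their calls with each of the 12 libraries left out in turn. Among ribosomal protein genes 31 of 72 (WT) and 57 of 72 (WDM) were called in the same direction, with medians of -0.59 and -0.89. The list of other TOP mRNAs had 2 of 14 lower in WT, EIF3H at -0.88 the furthest, with IPO7 higher at 0.92, and 3 of 14 lower in WDM, EIF3E at -1.03 the furthest, shares near those of all genes.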

How the results depend on the processing

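The counts of members called between granules and cytosol were 7 under every alternative run, except 8 for WT without arsenite under 2 alternatives that left out the tetracycline cytosol library numbered 1. The added call was PABPC1, higher in granules at 0.79 in both. It carries no test, since the level of PABPC1 chose that library. No called member changed sign under any alternative run. Counts in this section are of members only, and the share of all genes called in each setting is not given. A tally was made for 77 results of single members, those called in the fits described above and others picked for the report. Over their 1089 alternative settings, 995 kept direction and side of the threshold, 72 lost a call, 14 gained one and 8 values of uncalled members changed sign. Gains outside the 77 results, such as EEF1A1 and NACA when only the untreated groups were fitted, are not in that tally. With the replicate block, the count went from 1 to 2 for WDM against WT in tetracycline cytosol and from 2 to 4 for the WT arsenite-by-fraction interaction. No other count moved by more than 1.5 times under the block. Fitting only the groups compared gave 4 (from 1) for WDM against WT untreated, 0 (from 1) with tetracycline, 0 (from 3) for WT and 0 (from 5) for WDM cytosol arsenite, and 4 for the WT interaction. Library size alone gave 0 for WT cytosol arsenite and 4 for the WT interaction, and no filter gave 1 for that interaction. With both tetracycline cytosol libraries numbered 1 left out, the counts were 2 for WDM against WT with tetracycline, 1 for tetracycline in WT (from 0), 7 for WT cytosol arsenite and 1 for the WT interaction. The counts for tetracycline in WT and for WT cytosol arsenite include PABPC1, whose level chose those libraries. Leaving out each library gave 0 to 1 for WDM against WT untreated, 0 to 2 with tetracycline and 1 to 2 with arsenite, 0 to 6 for cytosol arsenite in WT and in WDM, 0 to 3 for the lines in tetracycline granules, and 0 to 3 for the WT interaction. Leaving out each library, PABPC1 ranged from -0.030 (without tetracycline library 2) to 0.64 in WT cytosol arsenite and from -0.0075 (without tetracycline library 2) to 0.62 in WDM. For granules against cytosol in WDM it ranged from -0.20 (without cytosol library 2) to 0.46 with tetracycline, at -0.06 without granule library 3. With arsenite it ranged from -0.13 to 0.068 (without granule library 1), was 0.07 without cytosol library 1, and was 0.034 with no filter. EEF2 in WT cytosol arsenite was 0.0028 with library size alone. The causes were not tested beyond the fewer libraries or genes in these settings. Library size alone also moved the share of calls that were rises from 45.9% to 56.0% for WDM against WT with tetracycline, from 51.7% to 66.0% for the lines in arsenite granules, and from 55.1% to 43.9% for tetracycline in WT.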
